A study of Rattus norvegicus with 15 samples.

Results

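Goblet cell mucus genes were followed through the intestinal RNA of normal, diabetic and operated rats. The set lists 10 genes, Muc2, Muc3, Muc13, Tff3, Fcgbp, Agr2, Spdef, Zg16, Retnlb and Spink4, and its members are the array probes that carry one of these names. There were 7 such probes of 6 genes (Agr2, Spdef, Muc2, Muc13, Zg16 and 2 probes of Tff3) among 41012 noncontrol probes, and Muc3, Fcgbp, Retnlb and Spink4 had no probe under these names. All 7 probes were well above background on all 15 arrays, so none entered through 1 group alone.

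The 15 male rats made 3 groups of 5, with 1 array per rat. Wistar rats were nondiabetic and had no operation. GK-Sham-PF rats, also called sham-operated rats here, were Goto-Kakizaki (GK) rats, a nonobese inbred model of type 2 diabetes derived from Wistar stock, whose intestine was cut 16 cm from the ligament of Treitz and rejoined, and which were pair-fed. GK-S-30 rats were GK rats with Roux-en-Y gastric bypass (RYGB) and a Roux limb (RL) of 30 cm, the intestinal limb joined to the stomach pouch. GK rats were operated at 16 wk of age, tissue was taken 14 wk postoperation, and both operated groups share the GK background. The piece was 5 cm long and lay 21 to 26 cm from the ligament of Treitz in Wistar and GK-Sham-PF rats, but 5 cm from the gastric anastomosis in GK-S-30 rats, so operation and site cannot be told apart. The piece holds all layers of the gut wall, and in such bulk RNA fewer goblet cells and less RNA per goblet cell cannot be told apart.

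Goblet cells are the secretory cells that cover the intestinal epithelium with mucus. They assemble gel-forming mucins in the endoplasmic reticulum, load them with O-linked sugars in the Golgi and release them from granules together with trefoil peptides and lectins. Type 2 cytokines are known to raise goblet cell number and secretion, while Notch signaling holds progenitors back from the secretory fate.

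The probes set what each value reads, so those of the genes on which the comparisons turn are shown 5′ to 3′ as the array files write them. Tff3 is read at 2 places, both on the minus strand of rat chromosome 20 in build rn4. A_44_P335079 lies at chr20:9471911-9471970, and the capitals mark the 3 cysteine codons (TGT or TGC) of its open reading frame with the most of them; cysteines tie the loops of the trefoil fold. A_43_P11676 lies at chr20:9469906-9469962, and 30 of its 60 bases are shown around the polyadenylation hexamer AATAAA in capitals, at bases 37 to 42 of the probe. That hexamer occurs in 4.26% of all noncontrol probes on the strand as written. The Agr2 probe matches chr6:54709562-54710914 (plus strand), a span of 1353 bases for a 60-base probe, and it has a single open frame. The Muc2 and Muc13 probes have no position in the files; capitals mark the cysteine codons of the open frame with the most of them, 3 in Muc2 and 1 in Muc13.
Tff3 A_44_P335079: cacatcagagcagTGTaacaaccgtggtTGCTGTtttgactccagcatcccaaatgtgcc
Tff3 A_43_P11676, bases around the hexamer: ccagaagAATAAAgaccttacagtcagcac
Agr2: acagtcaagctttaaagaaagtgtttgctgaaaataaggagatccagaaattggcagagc
Muc2: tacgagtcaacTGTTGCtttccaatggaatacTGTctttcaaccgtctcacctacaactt
Muc13: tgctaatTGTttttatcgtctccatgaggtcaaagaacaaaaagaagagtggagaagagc

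The Spdef probe lies at chr20:5927918-5927977 (minus strand), and the Zg16 probe spans 218 bases at chr1:186302262-186302479 (minus strand). Exon and UTR borders of rn4 were not used here. Levels are log2 normalized signals, which are relative within a probe and were not compared between probes.

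Signal was well above background for 66.7% to 74.8% of probes on an array. The 75th percentile of the processed signal ran from 207 to 357 units, lowest on Wistar replicate 3 and on GK-Sham-PF replicate 5. All 11 genes of an epithelial marker list were measured, with list means from 13.86 to 14.31 over the 15 arrays. Of 7 stomach markers, Atp4a, Cblif, Gkn1 and Gkn2 were not well above background on every array of any group, while Atp4b, Ghrl and Pgc were above it on all 15 arrays, with list means of 7.39 to 8.62. The 4 slides did not cut across the groups evenly, and no slide held both GK-S-30 and Wistar arrays.

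None of the 7 probes passed the test of GK-S-30 against sham-operated rats, the comparison that asks what RYGB changes in diabetic rats (limma, Benjamini-Hochberg adjustment over 17052 probes). Of all tested probes, 8.37% passed, 4.79% as higher and 3.59% as lower in GK-S-30. At an unadjusted p under 0.05, 3 members (Muc2, Agr2 and Muc13) were counted, beside 22.1% of all probes. The methods' Tukey comparison without adjustment over probes counted 2 (Muc2 and Muc13), beside 15.1%. No member had groups that did not overlap, which 8.4% of all probes had. The median log2 fold change of the 7 probes was 0.14, beside -0.02 over all tested probes.

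**Figure D1:**
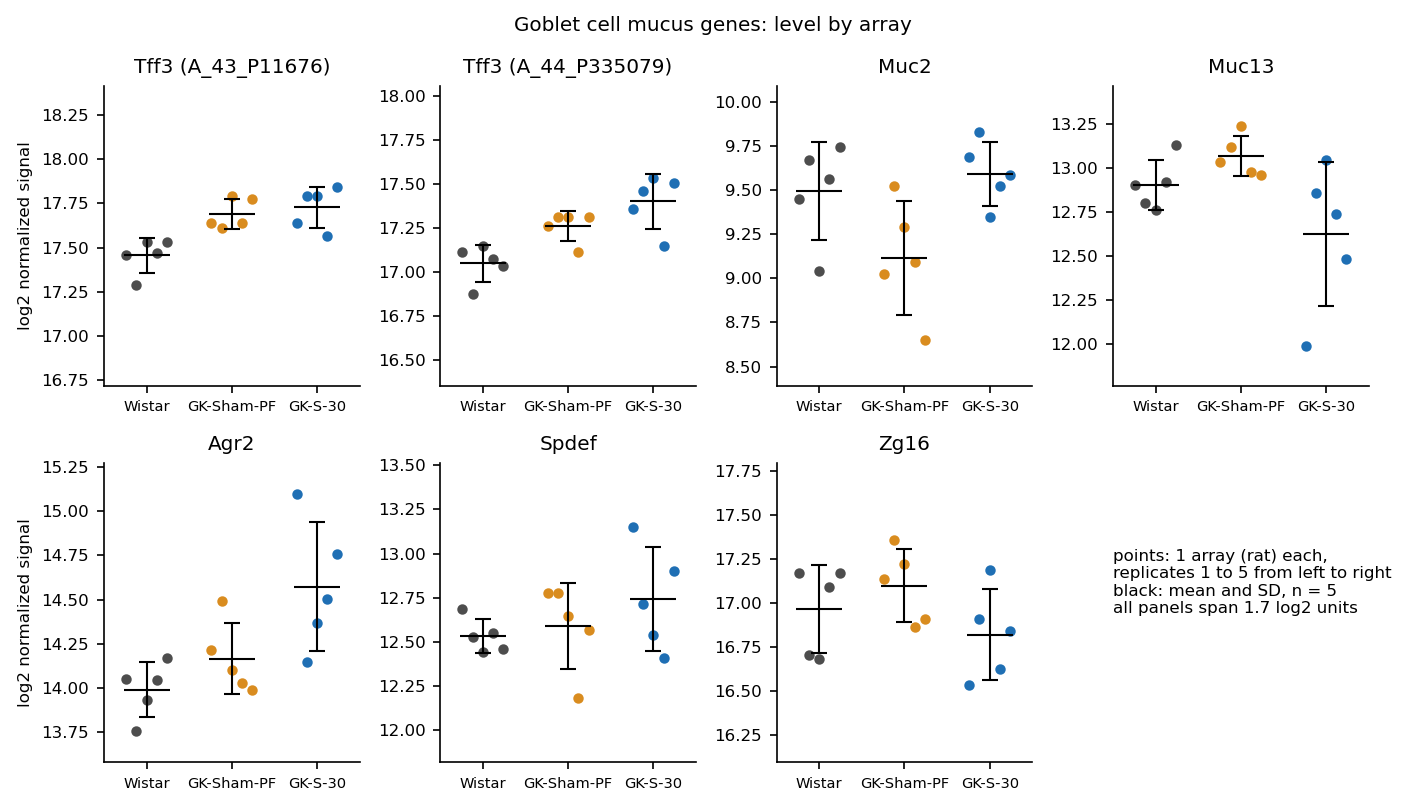
Log2 normalized signal (y axis) of each member probe on each array, by group (x axis), with every panel spanning 1.7 log2 units; points are rats, black bars the mean and SD (n = 5). The Tff3 probes sit lowest in Wistar rats, Muc2 lowest in GK-Sham-PF rats, and Agr2 and Muc13 spread most in GK-S-30 rats.

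Muc2 encodes the gel-forming mucin that makes the structural net of intestinal mucus. The Tff3 and Zg16 probes ranked between 12th and 112th from the brightest of 41012 probes. The Muc2 probe was the dimmest of the 7 member probes, between 5967th and 9086th, with processed signals of 267 to 950 units. How well the Muc2 probe reads its gene was not tested. Its level was 9.45, 9.67, 9.04, 9.56 and 9.74 in Wistar replicates 1 to 5, 9.02, 9.52, 9.29, 9.09 and 8.65 in GK-Sham-PF replicates 1 to 5, and 9.69, 9.83, 9.35, 9.52 and 9.58 in GK-S-30 replicates 1 to 5. GK-Sham-PF rats had the lowest mean and GK-S-30 rats reached down to 9.35, below the highest sham value of 9.52. The mean was 9.59 ± 0.18 in GK-S-30 and 9.12 ± 0.32 in GK-Sham-PF (SD, n = 5 each), a log2 difference of 0.48 with a standard error (SE) of 0.163 and a limma adjusted p of 0.0879. The 2 arrays with the lowest overall signal, GK-Sham-PF replicate 5 and Wistar replicate 3, were also the lowest of their groups for Muc2. Without them the difference was 0.36 (limma adjusted p = 0.0761). Over all alternatives p ran from 0.0382, in the methods' Tukey comparison without adjustment over probes, to 0.285. On the slide that held both groups (GK-Sham-PF replicates 4 and 5, GK-S-30 replicates 1 and 2) the log2 difference was 0.89. That slide includes GK-Sham-PF replicate 5, the lowest of all arrays for Muc2, at 8.65.

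Against Wistar, Muc2 was -0.38 in GK-Sham-PF rats (SE 0.163, limma adjusted p = 0.206; -0.17 on the slide with both groups) and 0.10 in GK-S-30 rats (limma adjusted p = 0.701). The latter has a 95% interval of -0.25 to 0.45. Without Wistar replicate 3 it was -0.01, so its sign rests on that array.

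Muc13 encodes a membrane-bound mucin of the brush border glycocalyx, made by goblet cells and enterocytes. Its level was 12.90, 12.80, 12.76, 12.92 and 13.13 in Wistar replicates 1 to 5, 13.03, 13.12, 13.24, 12.98 and 12.96 in GK-Sham-PF, and 11.99, 12.86, 13.04, 12.74 and 12.49 in GK-S-30. Of the GK-S-30 values, 4 lay below every sham value, and replicate 3 lay inside the sham range. The log2 difference of GK-S-30 to sham-operated rats was -0.44 (SE 0.158, limma adjusted p = 0.102), and -0.54 on the slide with both groups. On that slide GK-S-30 replicates 1 and 2 were at 11.99 and 12.86, beside 12.98 and 12.96 in GK-Sham-PF replicates 4 and 5. GK-S-30 replicate 1 was the lowest of the 15 arrays, and without it the difference over all slides was -0.28. The enterocyte marker list was also lowest on that array, at a mean level of 14.53, while the other 14 arrays ran from 14.93 to 15.52; its part in the result was not tested.

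Agr2 encodes a protein disulfide isomerase of the endoplasmic reticulum that goblet cells need to fold Muc2. Its level was 14.05, 13.76, 13.93, 14.05 and 14.17 in Wistar replicates 1 to 5, 14.21, 14.49, 14.10, 14.03 and 13.99 in GK-Sham-PF, and 15.10, 14.14, 14.37, 14.51 and 14.76 in GK-S-30. GK-S-30 replicates 1, 4 and 5 lay above every other array, whereas replicates 2 and 3 lay within the sham range. Against sham-operated rats the log2 difference was 0.41 (SE 0.158, limma adjusted p = 0.133), and 0.28 without GK-S-30 replicate 1, the highest array. It was 0.61 on the slide with both groups, which includes that replicate. The slide's other GK-S-30 array, replicate 2, was at 14.14, beside 14.03 and 13.99 in GK-Sham-PF replicates 4 and 5.

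Spdef encodes the transcription factor that drives the last steps of goblet cell maturation, with Agr2 among its known targets. Its level ran from 12.44 to 12.69 in Wistar rats (median 12.53), from 12.18 to 12.78 in sham-operated rats (median 12.64) and from 12.41 to 13.15 in GK-S-30 rats (median 12.71). The groups overlapped, and the highest value was again GK-S-30 replicate 1. The log2 difference of GK-S-30 to sham-operated rats was 0.15 (95% interval -0.15 to 0.45, limma adjusted p = 0.592). It was 0.56 on the slide with both groups, which includes GK-S-30 replicate 1, and 0.05 over all slides without that replicate. The slide's other GK-S-30 array, replicate 2, was at 12.71, beside 12.18 and 12.57 in GK-Sham-PF replicates 4 and 5.

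Zg16 encodes a lectin-like granule protein that binds bacterial cell walls. Its level ran from 16.68 to 17.17 in Wistar rats (median 17.09), from 16.86 to 17.36 in sham-operated rats (median 17.14) and from 16.54 to 17.19 in GK-S-30 rats (median 16.84). These ranges overlapped widely. GK-S-30 differed from sham-operated rats by -0.28 on the log2 scale (95% interval -0.59 to 0.04, limma adjusted p = 0.293), and by -0.16 on the slide with both groups.

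**Figure D2:**
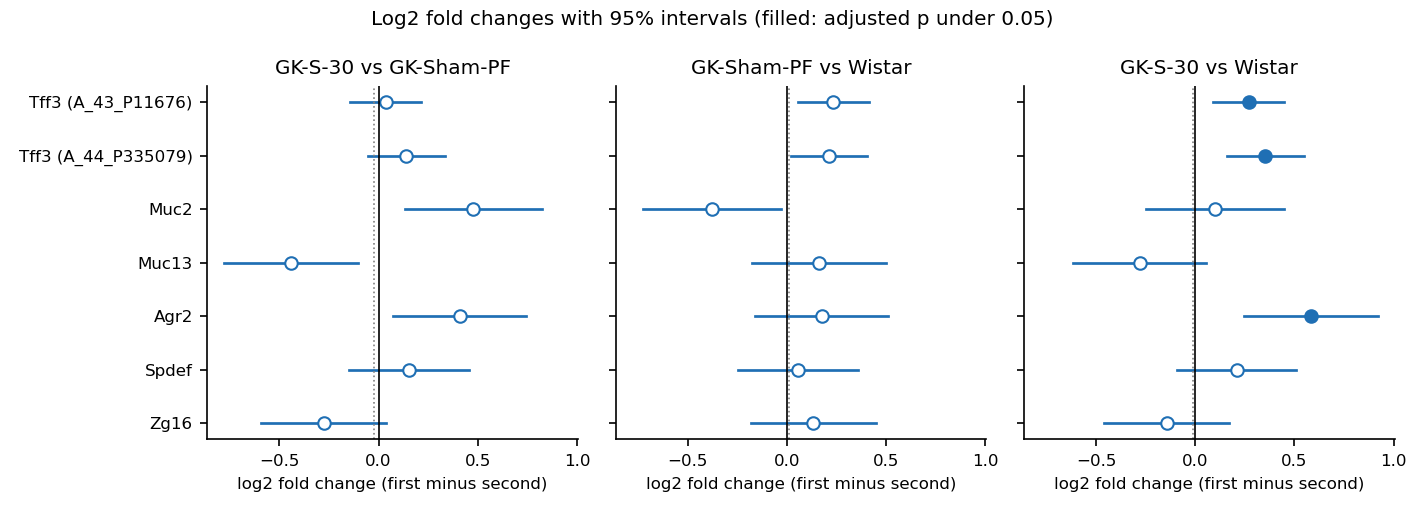
Log2 fold change (x axis) of each member probe (y axis) in the 3 comparisons, with limma's 95% interval; filled points passed the adjusted test, and the dotted line is the median of all tested probes. The 3 filled points, both Tff3 probes and Agr2, lie in the comparison of GK-S-30 with Wistar rats.

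Tff3 encodes the intestinal trefoil peptide that goblet cells secrete with Muc2 and that aids epithelial repair. For A_43_P11676 the level was 17.46, 17.29, 17.53, 17.47 and 17.53 in Wistar replicates 1 to 5, 17.64, 17.61, 17.79, 17.64 and 17.77 in GK-Sham-PF, and 17.64, 17.79, 17.79, 17.57 and 17.84 in GK-S-30. Every GK array of either group lay above every Wistar array. For A_44_P335079 the level was 17.11, 16.88, 17.15, 17.08 and 17.03 in Wistar, 17.26, 17.31, 17.31, 17.11 and 17.31 in GK-Sham-PF, and 17.36, 17.46, 17.53, 17.15 and 17.51 in GK-S-30. Here GK-Sham-PF replicate 4 and GK-S-30 replicate 4 reached into the Wistar range. The 2 probes, at the 2 sites printed above, tracked each other over the 15 arrays (r = 0.91; r = 0.81 for deviations from the group means), as readings of the same RNA samples.

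GK-S-30 differed from sham-operated rats by 0.04 with A_43_P11676 (95% interval -0.14 to 0.21, limma adjusted p = 0.854) and by 0.14 with A_44_P335079 (-0.05 to 0.33, limma adjusted p = 0.406). On the slide with both groups the values were 0.01 and 0.20. Both intervals include 0, so the levels of the 2 GK groups were not told apart with either probe.

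Between GK-Sham-PF and Wistar rats, which differ in strain, diabetes, feeding and operation, no member passed limma's adjusted test, beside 7.88% of all probes (3.74% higher and 4.15% lower in GK-Sham-PF). At an unadjusted p under 0.05, 3 members (both Tff3 probes and Muc2) were counted, beside 19.5% of all probes. The methods' Tukey comparison counted 2, both of Tff3, beside 13.9%. Only Tff3 A_43_P11676 had groups that did not overlap, 1 of 7 beside 9.04% of all probes. Its log2 difference was 0.23 (SE 0.0839, limma adjusted p = 0.115), and 0.22 on the slide with Wistar replicate 1 and GK-Sham-PF replicates 1 to 3. For A_44_P335079 the difference was 0.21 (SE 0.0911, limma adjusted p = 0.204; 0.18 within that slide). Agr2, Spdef, Muc13 and Zg16 had differences between 0.06 and 0.17. The median of the 7 probes was 0.16, beside 0.01 over all probes.

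GK-S-30 and Wistar rats differ in strain, diabetes, operation, site and slide, which cannot be told apart here. Between these groups 3 of 7 member probes passed limma's adjusted test, a share of 42.9% beside 24.1% of all probes. All 3 were higher in GK-S-30. They were Agr2 and both Tff3 probes, which read the same gene, so the share counts Tff3 more than once. With each gene read by its brightest tested probe, Agr2 and Tff3 passed among the 6 member genes, beside 25.5% of all genes. Higher levels in GK-S-30 passed for 11.9% of all probes and lower levels for 12.2%. Agr2 was higher by 0.58 on the log2 scale (1.5-fold, SE 0.158, limma adjusted p = 0.0142), and by 0.46 without GK-S-30 replicate 1. Tff3 was higher by 0.27 with A_43_P11676 (1.21-fold, SE 0.0839, limma adjusted p = 0.0285) and by 0.35 with A_44_P335079 (1.28-fold, SE 0.0911, limma adjusted p = 0.0112). The same 3 probes were those under 0.05 without adjustment and in the Tukey comparison, where 36.5% and 27.5% of all probes were counted. Groups did not overlap for 1 member, Tff3 A_43_P11676, beside 18.3% of all probes. The median of the 7 probes was 0.21, beside -0.01 over all probes.

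The Tff3 calls depend on the scaling. The Tff3 probes ranked between 12th and 78th from the brightest of 41012 probes on every array, where quantile normalization sets each value from the rank. With scaling to the 75th percentile instead, the differences were 0.26 and 0.29, with limma adjusted p of 0.224 and 0.148, while Agr2 was 0.66 (limma adjusted p = 0.00416). With slide as a fixed term, estimated through the GK-Sham-PF arrays since no slide held both groups, Agr2 was 0.83 (limma adjusted p = 0.370; 0.00416 to 0.370 over all alternatives), and neither Tff3 probe passed.

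For the other members, the difference between GK-S-30 and Wistar was 0.21 for Spdef (limma adjusted p = 0.314), -0.28 for Muc13 (0.217) and -0.14 for Zg16 (0.520). The 95% intervals were -0.09 to 0.51, -0.62 to 0.06 and -0.46 to 0.17. All 3 intervals include 0. Without GK-S-30 replicate 1 the differences were 0.11 for Spdef, -0.12 for Muc13 and -0.07 for Zg16.

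**Figure D3:**
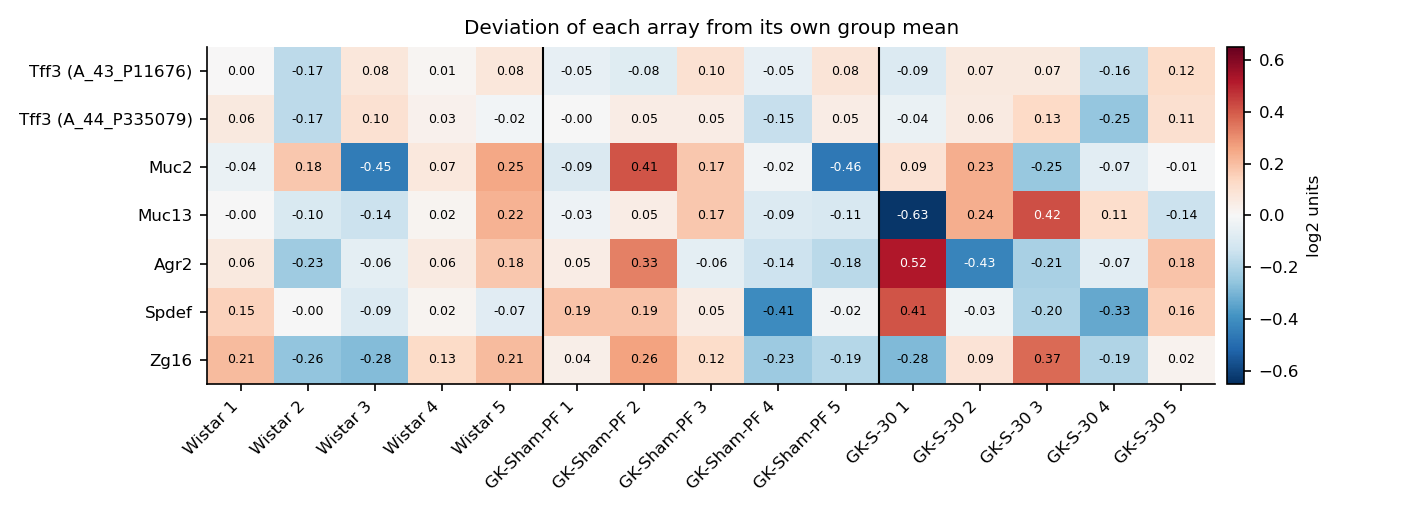
Deviation of each array (x axis) from its own group mean, in log2 units, for each member probe (y axis); red is above and blue below the mean, and black lines part the groups. GK-S-30 replicate 1 is high for Agr2 (0.52) and Spdef (0.41) and low for Muc13 (-0.63) and Zg16 (-0.28).

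The members did not vary as 1 block. Agr2 and its regulator Spdef tracked each other over the 15 arrays (r = 0.69; 0.64 for deviations from the group means), as did Muc13 and Zg16 (r = 0.77; 0.70). Agr2 and Muc13 had r = -0.66 (-0.56 for deviations), which rests on GK-S-30 replicate 1, since without that array r was -0.26 (-0.09). Without it Agr2 and Spdef had r = 0.46 (0.42), and Muc13 and Zg16 had r = 0.75 (0.70). Muc2 and Zg16 had r = -0.05 over the 15 arrays but 0.35 for deviations from the group means. With the Tff3 probes A_43_P11676 and A_44_P335079, Muc2 had r = -0.23 and -0.05 (-0.27 and -0.20 for deviations). GK-S-30 replicate 1 had the highest Agr2 and Spdef and the lowest Muc13 and Zg16 of all arrays, and these values share array, RNA sample and normalization. The genes outside the set whose probes followed the Muc2 probe most closely over the 15 arrays, among 17018 probes, were Npc1 (r = 0.91; 0.88 for deviations), Dsp (0.89; 0.82), Pi4ka (0.86; 0.80), Mark2 (0.85; 0.85) and Cpd (0.84; 0.77). Npc1 exports cholesterol from lysosomes, Dsp is a desmosome protein, Pi4ka a lipid kinase, Mark2 a kinase of cell polarity and Cpd a carboxypeptidase of the secretory pathway. These genes were picked for the highest r, so the size of r is not support for a link to Muc2. Muc2 deviated most on Wistar replicate 3 (-0.45) and GK-Sham-PF replicate 5 (-0.46), the 2 dimmest arrays. Deviations of these 2 arrays over the tested probes correlated at 0.62. Their part in the r values was not tested.

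Relatives of the members under other names were read as well, and were chosen after their values were seen. The membrane mucin gene Muc3a had a median level of 14.94 in Wistar, 14.32 in sham-operated and 14.75 in GK-S-30 rats, and Fcgbpl1, by its name a relative of the mucus protein Fcgbp, had medians of 14.64, 14.66 and 14.85. Neither passed in any comparison. Tff2, the trefoil peptide of gastric and duodenal glands and a neighbor of Tff3 in the trefoil gene cluster, ran from 3.49 to 4.56 in Wistar, from 3.12 to 4.86 in sham-operated rats (above background on 3 arrays) and from 4.19 to 8.08 in GK-S-30. Its difference to sham-operated rats was 1.62 with a limma adjusted p of 0.115.

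Around the members, 5 lists of goblet cell genes, chosen with earlier results of these data known, held 65 tested genes. Against sham-operated rats 9 were higher in GK-S-30 and 2 lower, 16.9% beside 9.14% of 13042 tested genes, each read like the list genes by its brightest tested probe. How far the choice of genes shaped that share was not tested. Between GK-Sham-PF and Wistar 3 were higher and 2 lower (7.69% beside 8.4%), and between GK-S-30 and Wistar 13 were higher and 5 lower (27.7% beside 25.5%), shares close to those of all genes. Of the higher genes, 1 of 9, 2 of 3 and 3 of 13 in these comparisons were not above background on every array of the lower group (Muc5b, St6galnac1 and B3gnt6), so they entered the test only through a group where they were high.

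**Figure D4:**
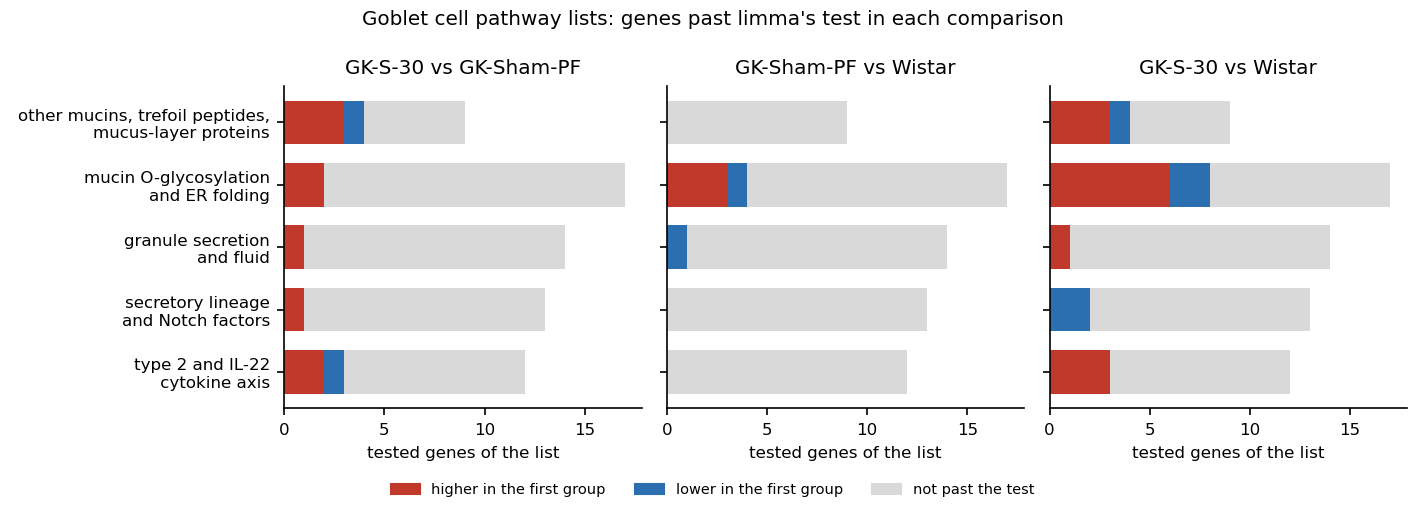
Number of tested genes (x axis) in each goblet cell list (y axis) that were higher (red), lower (blue) or did not pass limma's adjusted test (grey) in each comparison. No gene of the first list passed between GK-Sham-PF and Wistar rats, while 4 of 9 did in each comparison with GK-S-30.

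Among other mucins, trefoil peptides and mucus-layer proteins, 3 of 9 tested genes rose and 1 fell in GK-S-30 against sham-operated rats, with a list median of 0.29. Dmbt1, a secreted scavenger-receptor glycoprotein of mucus, was 12.89, 12.99, 13.28, 12.41 and 14.26 in GK-Sham-PF and 14.88, 13.81, 14.68, 14.15 and 14.74 in GK-S-30 replicates 1 to 5. GK-Sham-PF replicate 5 alone reached the GK-S-30 range, and the log2 difference was 1.29 (SE 0.317, limma adjusted p = 0.0211). Muc5b, a gel-forming mucin more usual in airways and salivary glands, was near the floor of the array, at a mean of 3.88 in Wistar and 3.95 in GK-Sham-PF (above background on 4 of 5 arrays each) and 5.22 in GK-S-30. Its 5 GK-S-30 values, from 4.67 to 5.84, lay above all 10 others, with a difference of 1.27 to GK-Sham-PF (limma adjusted p = 0.0105). The other 2 genes were named after their values were seen. Clca1, a mucus-processing protease of goblet cells, was higher by 0.73 (limma adjusted p = 0.0157) and the gland mucin Muc6 was -0.76 (limma adjusted p = 0.00357). All 4 kept these signs and passed against Wistar as well, in a comparison that shares the GK-S-30 arrays.

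In the list for mucin O-glycosylation and folding in the endoplasmic reticulum, 2 of 17 tested genes rose against GK-Sham-PF, with a median of 0.17. Gcnt3, which makes the branched core of mucin sugars, was 11.27, 11.60, 11.45, 11.35 and 11.16 in Wistar replicates 1 to 5, 12.10, 12.53, 12.59, 12.23 and 12.24 in GK-Sham-PF, and 13.16, 13.34, 13.55, 13.29 and 12.80 in GK-S-30. The 3 groups were fully apart, Wistar lowest and GK-S-30 highest. The step from Wistar to GK-Sham-PF was 0.97 (limma adjusted p = 0.000289) and that from sham-operated to GK-S-30 rats was 0.89 (limma adjusted p = 0.00128). Fut2, the fucosyltransferase of secreted blood-group sugars, was 8.67 to 9.34 in GK-S-30, above the 7.50 to 8.34 of the other 10 arrays, with a difference of 0.76 to GK-Sham-PF (limma adjusted p = 0.00745).

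St6galnac1, which caps mucin sugars with sialic acid, was singled out after its values were seen. It was not well above background on any Wistar array but reached 13.71 to 14.28 in GK-Sham-PF and 13.09 to 13.90 in GK-S-30 rats. Against the lowest signals above background on the Wistar arrays it was at least 1763-fold higher in sham-operated rats and at least 1232-fold higher in GK-S-30. These bounds were not tested. The limma adjusted p of 4.41e-15 and 8.28e-15 belong to the fit on the measured Wistar values, which were not above background. The gene entered that test only through the GK groups, where it was high. Whether the probe's sequence matches the RNA of both strains equally was not tested, here or for any other probe. The 2 GK groups differed by -0.52, GK-S-30 being the lower (limma adjusted p = 0.164). B3gnt6, the core 3 enzyme, singled out likewise, was above background on 2 of 5 Wistar arrays and on all GK arrays, at means of 3.51 in Wistar, 5.4 in sham-operated and 5.36 in GK-S-30 rats. Of the 17 list genes, GK-S-30 had 6 higher than Wistar and 2 lower, and sham-operated rats had 3 higher and 1 lower. St6galnac1 and B3gnt6 are among the higher genes in both counts and were tested only because the GK arrays were above background.

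Few genes of granule secretion and fluid transport passed. Rab26, a small GTPase of secretory granules, was 6.56 to 6.78 in GK-Sham-PF and 7.11 to 7.42 in GK-S-30, a difference of 0.60 (limma adjusted p = 0.000444). It was the 1 gene of 14 that rose, and the list median was 0.06. Rab27a, which docks granules at the membrane, was the 1 gene that passed between GK-Sham-PF and Wistar, at -0.44 (limma adjusted p = 0.0484).

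Among factors of the secretory lineage and Notch signaling, Klf4, a goblet cell differentiation factor, was the 1 of 13 that rose against GK-Sham-PF. Its values were 12.57 to 12.85 in GK-Sham-PF and 12.99 to 14.12 in GK-S-30, with no overlap and a difference of 0.67 (limma adjusted p = 0.0291). Against Wistar the Klf4 difference was 0.36 (limma adjusted p = 0.151), which did not pass. Hes1, the Notch target that represses the secretory fate, was -0.41 against GK-Sham-PF (limma adjusted p = 0.0503), which did not pass, and -0.35 against Wistar (0.0469), which did. Foxa2 was the other gene of this list that fell against Wistar, and was named after its values were seen. The list median against GK-Sham-PF was 0.02. Atoh1, Foxa1 and Dll4 were not tested.

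In the list for type 2 and IL-22 cytokines, Il1rl1, the receptor of IL-33, had the largest change. It was 4.61, 5.72, 4.99, 4.31 and 4.59 in GK-Sham-PF and 10.23, 7.68, 6.37, 8.20 and 9.35 in GK-S-30 replicates 1 to 5. All GK-S-30 values lay above all others, with the highest in replicate 1, and the difference was 3.52 (SE 0.551, limma adjusted p = 0.00123). Il33 itself ran from 9.42 to 10.85 in GK-Sham-PF and from 10.42 to 12.94 in GK-S-30, again highest in replicate 1. Its difference was 1.26 (limma adjusted p = 0.0558), and 1.45 against Wistar (0.0125). Il17rb, a receptor of IL-25, rose and Il10 fell against GK-Sham-PF (named after their values were seen), so that 2 of 12 tested genes rose and 1 fell, with a median of -0.08. Il5, Il9, Il25, Il13ra2 and Il22 were not tested.

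Of the marker lists of other cell types, the tuft cell and smooth muscle lists moved most against GK-Sham-PF, where 9.14% of all tested genes passed. All 6 tested tuft cell markers rose against GK-Sham-PF, with a median of 1.51, and their mean level ran from 7.93 to 8.82 in Wistar, from 7.25 to 8.81 in sham-operated and from 9.02 to 9.79 in GK-S-30 rats. Of 9 smooth muscle markers 6 rose, with a median of 1.21, and their mean level ran from 11.92 to 12.65, from 11.62 to 12.84 and from 13.25 to 13.58. All tested markers of both lists were above background on all arrays, and Gfi1b and Acta2 were not tested. Of 11 epithelial markers 2 rose, with mean levels of 13.88 to 14.19, 13.86 to 14.19 and 14.14 to 14.31. Of 8 enterocyte markers 1 fell, of 6 Paneth cell markers 1 rose, of 8 enteroendocrine markers 3 rose and of 6 leukocyte markers 2 fell. Of 3 blood markers 1 rose and of 4 pancreatic acinar markers 1 fell. No tested marker of stomach, of Brunner gland and duodenum or of proliferation passed. Against Wistar, where Agr2 and Tff3 passed, all 6 tuft cell (median 1.10), 7 of 9 smooth muscle (1.27) and 2 of 3 blood markers (0.83) rose, beside 25.5% of all genes passing. In that comparison 3 of 11 epithelial markers rose. Of 6 leukocyte markers 1 rose and 3 fell, of 6 Paneth cell markers 1 rose and 2 fell, and of 8 enterocyte markers 1 rose and 2 fell. Of 8 enteroendocrine markers 2 rose and 1 fell, and of 3 stomach markers 1 fell. The mean of 4 tested pancreatic acinar markers ran from 6.66 to 7.68 in Wistar, from 8.18 to 8.90 in sham-operated and from 7.76 to 8.79 in GK-S-30 rats, so every GK array lay above every Wistar array, as for Tff3 A_43_P11676. Of these 4, Amy2a3 and Prss1 rose in GK-S-30 against Wistar, Ctrb1 fell and Cela1 did not pass, with a median of 1.34, and Amy2a3 alone rose in sham-operated rats. Amy2a3 was above background on 4 and Prss1 on 1 of 5 Wistar arrays, and Cpa1 and Pnlip were not tested. The part of these cell types in the results above was not tested.

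**Figure D5:**
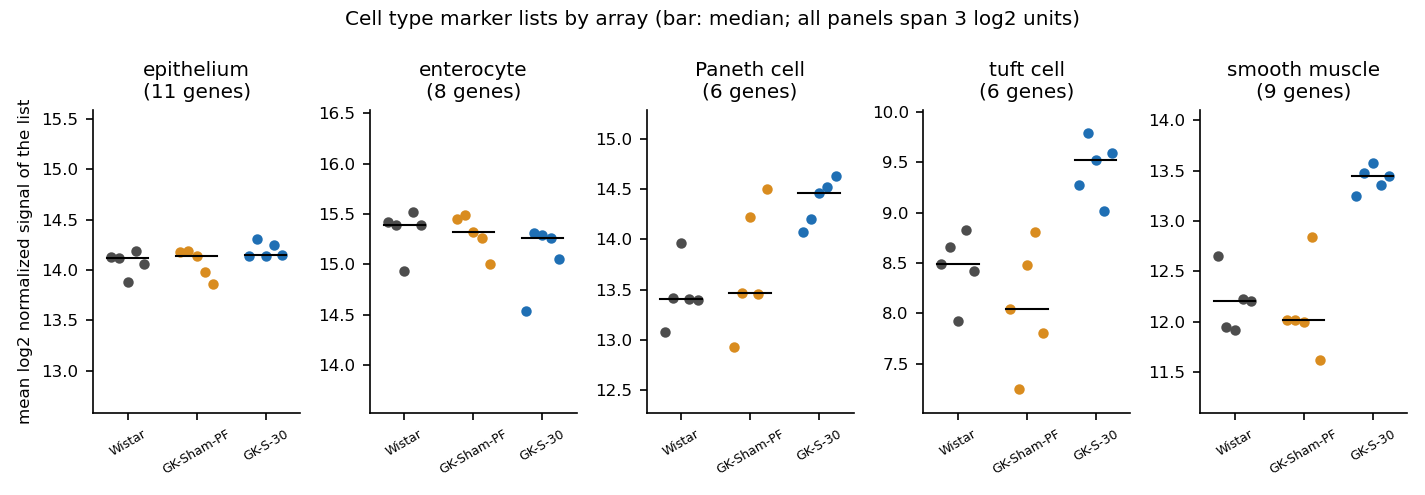
Mean log2 normalized signal (y axis) of 5 cell type marker lists on each array, by group (x axis), with every panel spanning 3 log2 units; points are rats and bars the medians. The tuft cell and smooth muscle lists lie higher on every GK-S-30 array than on any other array, while the epithelium list stays between 13.86 and 14.31 and the enterocyte list is lowest, at 14.53, on GK-S-30 replicate 1.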

How the data were processed

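Intestinal RNA of 15 rats was measured with 1-color Agilent whole rat genome arrays. Per the labels total RNA was checked for integrity, labelled with Cy3 and read with Feature Extraction 10.7 (10.7.3.1 by the file headers). The authors deposited the intensity of each spot (processed signal, already background-subtracted within the array), and a series matrix of log2 values that they had quantile-normalized, used as an alternative. An array file holds 45018 spots, 43379 of them noncontrol, for 41012 probes.

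Control and outlier-marked spots were left out, none of the rest was saturated, spots were averaged per probe and log2 values quantile-normalized. Gene names were updated through RefSeq names (17811 probes by accession, 2959 by symbol, 528 by synonym); 1251 kept the file's name and 18463 unnamed probes were left out. A named probe was tested if all arrays of 1 group or more had it well above background (17052 probes). The 3 comparisons came from 1 limma 3.58.1 model over all arrays (R 4.3.3 and data.table, version 1.17.8; figures with Python 3.11.15 and matplotlib 3.10.9), without covariates, with Benjamini-Hochberg adjustment at 0.05 and no pairing of replicate numbers. The number of arrays limits precision, with a median SE of 0.149. The p-values rest on the spread between arrays of a group, 1 per rat. That spread mixes differences between rats with those between slides and array runs. A list gene was read by its brightest tested probe. The code was tested on simulated data.

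Members and lists were chosen with earlier results of these data known. From each goblet list, the 2 genes with the largest change in GK-S-30 against sham-operated rats that passed in any comparison were named. Alternatives covered scaling, background correction, the deposited values, probe filters, slide and replicate blocks, Tukey's comparison of the methods, centring on epithelial genes and leaving out each array; a run without the 2 dimmest arrays was added after seeing the data.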

Additional observations from a re-analysis of the deposited data

Results flagged for a closer look

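One array stood apart from its group. For Tff3 (A_44_P335079), GK-Sham-PF replicate 4 had a log2 normalized signal of 17.11, and the nearest other sham array was at 17.26, a gap of 0.738 of the group's whole range, above Dixon's 95% critical value of 0.71. The other Tff3 probe had 17.64 on the same array, inside its group's range of 17.61 to 17.79. Of 21 groups of 5 arrays searched, chance alone would mark about 5%.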

How the results depend on the processing

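The alternatives kept direction and side of the threshold in 640 of 669 comparisons of a member probe; 15 lost the call, 10 gained one and 4 turned sign. Between GK-S-30 and Wistar, Agr2 kept its call in 29 of 32 alternatives, Tff3 A_44_P335079 in 28 of 31 and Tff3 A_43_P11676 in 23 of 32. Members that passed there numbered 1 with 75th percentile scaling, 0 with slide as a fixed term and 0 with epithelial centring (2 to 3 when an array was left out). Signs turned under epithelial centring for Tff3 A_43_P11676 in GK-S-30 against sham-operated rats (-0.090) and for Muc2 in GK-S-30 against Wistar (-0.023), the latter also without the 2 dimmest arrays (-0.013); leaving out each array gave -0.013, without Wistar replicate 3, to 0.16. Epithelial centring moved the median of all probes to -0.15 and -0.13 in the comparisons with GK-S-30 and the share of higher calls from 57.1% to 30.8% and from 49.3% to 30.8%. In GK-S-30 against sham-operated rats, 1 member passed with epithelial centring (Muc13, -0.57) and 2 in the unadjusted Tukey comparison; leaving out arrays gave 0 to 1, with 1 without Wistar replicate 3 or GK-Sham-PF replicate 2 (Muc2), GK-S-30 replicate 2 (Agr2) or replicate 3 (Muc13). Between GK-Sham-PF and Wistar, 1 passed with an intensity trend and 2 in the unadjusted Tukey comparison (0 to 0 when an array was left out).

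With slide as a fixed term, 332, 213 and 271 probes passed in the 3 comparisons (1428, 1344 and 4107 without it) and 10, 2 and 4 of the 137 list genes (34, 9 and 53 without it). Tukey's comparison gave 2569 and 2375 probes in the first 2 comparisons unadjusted, 569, 828 and 2695 adjusted, and 14, 4 and 31 list genes adjusted (17 unadjusted between GK-Sham-PF and Wistar). With unnamed probes 2184 passed between GK-Sham-PF and Wistar and 6352 between GK-S-30 and Wistar. Leaving out each array gave 945 to 1731, 1001 to 1473 and 3372 to 4529 probes, 23 to 38, 5 to 12 and 44 to 53 list genes, and member medians of 0.05 to 0.21, 0.09 to 0.21 and 0.11 to 0.29. The cause of these moves was not tested.

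Replicate numbers did not pair the samples: deviations of same-numbered arrays correlated between -0.29 and 0.20. With the replicate block, 5 list genes passed between GK-Sham-PF and Wistar; it changed no member's call, with 972, 988 and 3355 probes passing. With 5 arrays a group and a median SE of 0.149, differences as small as most of the members' could be missed.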
